A study of Mus musculus with 6 samples.

Results

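The 9 genes described here encode the mouse MHC class II antigen presentation machinery and its regulator: the classical chains H2-Aa, H2-Ab1 and H2-Eb1, the invariant chain Cd74, the peptide-loading chains H2-DMa and H2-DMb1, the loading modulators H2-Oa and H2-Ob, and the transactivator Ciita. They were taken by symbol as 9 of the 32285 gene rows. The family was selected on earlier results of these data, UMIs per library and class in controls and knockouts, so those values are a description here and the tests printed beside them support nothing on their own. Their counts were measured in liver nuclei by droplet single-nucleus RNA sequencing, in which each molecule is counted once as a UMI. The 6 libraries came from male mice aged 18 weeks on chow diet, fasted for 12 hours overnight: 3 libraries labelled Plvap Control, from littermates, and 3 labelled Plvap knockout. The strain of both groups was C57BL/6JBomTac. One and the same source line was entered for both, a Plvap allele (Plvaptm1.1Salm) with a Cre transgene (Tg(Lrat-cre)1Rshw), so the labels leave unsaid whether the controls carried Cre. Lrat is a gene of hepatic stellate cells, and the Lrat promoter drives Cre there. Plvap encodes a protein of endothelial diaphragms. Nothing in the labels says that the libraries of a group were prepared apart from each other, so the spread between them may be partly technical.

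MHC class II molecules hold peptides made from internalised protein and display them to CD4+ T cells. The alpha and beta chains assemble with the invariant chain, which blocks the groove and guides the complex to endosomes. There cathepsins trim the invariant chain, H2-DM exchanges its last fragment for a peptide, and H2-O restrains H2-DM. Ciita does not bind DNA itself but docks on a complex of RFX, CREB and NF-Y proteins at the X and Y boxes of class II promoters. B cells, dendritic cells and many macrophages, including Kupffer cells, are among the known class II positive cells of the liver.

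On the mm10 build, 7 of the 9 genes lie on chromosome 17 between H2-Oa at its lower end (chr17:34092340-34095234) and H2-Eb1 at its upper end (chr17:34305867-34316674). Between them, in order, lie H2-DMa (chr17:34119541-34139101), H2-DMb1 (chr17:34153072-34160230), H2-Ob (chr17:34238903-34254414), H2-Ab1 (chr17:34257689-34269419) and H2-Aa (chr17:34282744-34287823), the last on the minus strand and all others on the plus strand. Ciita lies at chr16:10480059-10528418 on the plus strand, and Cd74 on a further chromosome. All 9 are annotated as protein coding in GENCODE M21. Counted genes on the opposite strand overlap 4 of them: Brd2 and CR974462.4 overlap H2-DMa, Gm20513 overlaps H2-Eb1, BC051537 overlaps H2-Oa and Dexi overlaps Ciita. CR974462.3 overlaps H2-DMa on its own strand, so reads shared by that pair are uncertain. The sources used here do not say whether reads were counted by strand.

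Promoter sequences of RefSeq on GRCm38.p6, from 250 bases before to 50 bases after each start, were found for 6 of the 9 genes (H2-Oa, H2-DMa, H2-DMb1, H2-Ob, H2-Aa and H2-Eb1). They are shown because the Y box letters and a short X-like stretch recur at similar spacings in genes that, as described below, differ in the nuclei that held their UMIs. The motif searched was GNAAC, then 24 to 29 bases of any kind, then ATTGG, on both strands, without overlap between its parts, and it was set after these promoters had been read. Capitals mark GNAAC and ATTGG, and each stretch is printed 5′ to 3′ on the strand of its gene with 10 bases on either side.
H2-Aa, chr17:34287857-34287914, minus strand: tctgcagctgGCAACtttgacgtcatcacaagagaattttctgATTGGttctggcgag
H2-Eb1, chr17:34305766-34305822, plus strand: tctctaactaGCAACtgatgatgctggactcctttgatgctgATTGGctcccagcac
H2-DMb1, chr17:34153087-34153144, plus strand: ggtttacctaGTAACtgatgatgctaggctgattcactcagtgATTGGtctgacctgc
H2-Ob, chr17:34238808-34238862, plus strand: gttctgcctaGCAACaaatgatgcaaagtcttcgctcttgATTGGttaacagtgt
H2-Oa, chr17:34092293-34092350, plus strand: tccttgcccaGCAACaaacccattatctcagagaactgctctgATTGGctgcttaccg
The stretch was present in 5 of the 6 genes, with gaps of 25 to 28 bases, and in 162 of all 32851 promoters of the same length (0.493%) on the strand of the gene, or 329 (1.00%) on either strand. ATTGG alone was on the gene strand of 22.1% of all promoters. Neither of the 2 H2-DMa promoters held the combined stretch. A match describes letters in the window and not a bound site.

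Across the series, 27297 barcodes carried 151395899 UMIs, 23153182 to 27199466 per library. After filters and removal of 805 doublet calls (3.04%), 25662 nuclei remained, with library medians of 4075.5 to 5328 UMIs. At most 10 barcodes were shared by any pair of libraries. Nuclei were clustered without the 9 genes and named from marker lists that hold no class II gene. The library labelled control 2 stood apart in composition: it gave 107 of the 197 monocyte-like nuclei, and 12.1% of its nuclei fell in clusters left unnamed against 1.36 to 2.53% in the other libraries. Hepatocyte-like nuclei also split by library: 1 cluster of 1599 held 877 from control 1 and 720 from knockout 2, another of 440 held 248 and 189 from these libraries, and 618 of the 682 nuclei of a further one were from knockout 1. Results were therefore also computed without control 1 and knockout 2. Plvap itself was at 244, 230 and 244 CPM (UMIs scaled to the class total) in stellate-like nuclei of the controls and at 233, 196 and 159 in those of the knockouts. The labels do not say which part of Plvap is deleted, and a 3′ tag outside it checks nothing, so the group names below are those of the labels.

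Class II UMIs were concentrated in few kinds of nuclei. Of the summed UMIs of the 9 genes, macrophage-like nuclei held 37.8% ± 6.99 (SD, n = 6 libraries), B-like nuclei 22.7% ± 7.65, monocyte-like nuclei 10.5% ± 10.5 and dendritic-like nuclei 7.53% ± 3.01. Monocyte-like nuclei held 32.0% in control 2 and 4.84 to 7.29% in the other 5 libraries. Endothelial-like nuclei held 7.07% ± 1.42, hepatocyte-like nuclei 5.93% ± 1.35 and stellate-like nuclei 2.68% ± 0.672. B-like nuclei held 17.8, 14.1 and 21.5% in the controls and 24.7, 22.0 and 36.4% in the knockouts, with no overlap.

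**Figure D1:**
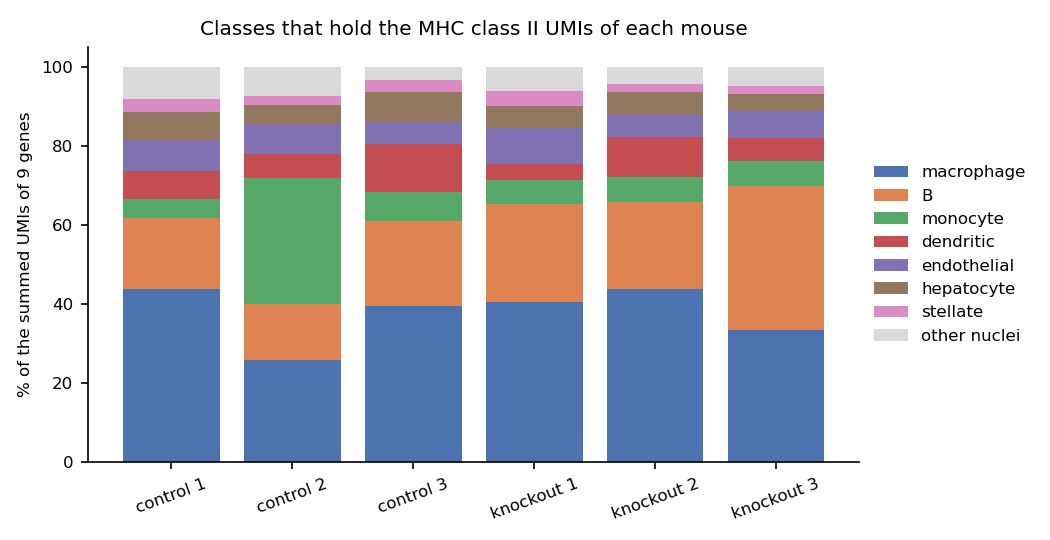
Share of the summed UMIs of the 9 MHC class II genes (vertical axis, %) held by each class of nuclei, one bar per mouse. Monocyte-like nuclei held 32.0% in control 2, and the B-like share was 14.1 to 21.5% in control mice and 22.0 to 36.4% in knockout mice.

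The levels below are CPM over all 6 mice and compare one gene between classes. They carry no test, since the classes came from clusters of the same nuclei. Cd74, which chaperones newly made class II chains, was at 1857 ± 485 CPM in monocyte-like, 1787 ± 342 in B-like and 1342 ± 364 in dendritic-like nuclei (SD, n = 6), with overlapping ranges. Plasmacytoid dendritic-like nuclei followed at 452 ± 154 CPM and macrophage-like nuclei at 268 ± 68.1 CPM, ranges that also overlapped each other. Both lay below the lowest B-like (1314 CPM) and dendritic-like (899.7 CPM) values. Endothelial-like (26.3 ± 9.63 CPM), stellate-like (22.2 ± 7.71 CPM) and hepatocyte-like nuclei (11.0 ± 3.80 CPM) came last. The name monocyte-like is uncertain here and below. The 8 monocyte markers summed in that class to 1229 to 1575 CPM per control and 1525 to 1753 CPM per knockout mouse. In dendritic-like nuclei the same markers summed to 2045 to 2121 and 1716 to 2742 CPM.

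The classical chains kept much the same order. H2-Aa, the alpha chain of I-A, was at 664 ± 137 CPM in monocyte-like, 633 ± 149 in dendritic-like and 532 ± 125 in B-like nuclei, again overlapping. It was at 174 ± 55.9 CPM in plasmacytoid dendritic-like and 71.5 ± 25.0 in macrophage-like nuclei, whose ranges of 114 to 264 and 41.5 to 99.1 CPM did not overlap. H2-Eb1, the beta chain of I-E, was at 736 ± 200, 723 ± 181 and 497 ± 122 CPM in monocyte-, dendritic- and B-like nuclei, and at 56.9 ± 19.4 CPM in macrophage-like nuclei. H2-Ab1, the beta chain of I-A, was at 631 ± 222, 563 ± 153 and 403 ± 108 CPM in the same 3 classes and at 65.6 ± 25.1 CPM in macrophage-like nuclei.

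Ciita, the transactivator of the family, had another order. It was highest in dendritic-like nuclei at 585 ± 189 CPM, with a range of 362 to 837 that overlapped the 301 to 427 CPM of monocyte-like nuclei (355 ± 52.8). B-like nuclei were at 256 ± 71.8 CPM and plasmacytoid dendritic-like nuclei at 83.6 ± 51.2 CPM. Macrophage-like nuclei were at 39.99 ± 17.4 CPM. In stellate-like nuclei Ciita was at 4.30 ± 1.16 CPM (61 UMIs), and its lowest value there, 3.30 CPM, exceeded the highest in endothelial-like nuclei (2.17 CPM, mean 1.43 ± 0.652) and in hepatocyte-like nuclei (1.30 CPM, mean 0.926 ± 0.360). Dexi lies opposite Ciita, and its part in these low values was not tested.

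H2-Ob and H2-Oa, whose product restrains H2-DM, were detected in fewer classes. H2-Ob was at 671 ± 115 CPM in B-like and 174 ± 59.5 CPM in dendritic-like nuclei, without overlap, and at 1.78 ± 1.12 CPM in macrophage-like nuclei (39 UMIs in 4422 nuclei). H2-Oa was at 46.3 ± 23.99 CPM in B-like and 46.2 ± 39.3 CPM in dendritic-like nuclei. Macrophage-like nuclei held 5 H2-Oa UMIs in all. Monocyte-like nuclei, whose Cd74 was as high as that of B-like nuclei, held 0 H2-Oa UMIs, which allows up to 3.57 CPM.

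The H2-DM chains differed from each other. H2-DMb1 was at 212 ± 48.8 CPM in B-like, 165 ± 31.2 in monocyte-like, 160 ± 57.9 in dendritic-like and 39.3 ± 8.22 in macrophage-like nuclei, and at 1.27 ± 0.547 CPM or less in endothelial-, stellate- and hepatocyte-like nuclei. H2-DMa was between 10.7 ± 1.97 CPM in hepatocyte-like and 83.4 ± 34.1 CPM in dendritic-like nuclei, the smallest ratio of highest to lowest mean among the 9 genes over these 8 classes. It made up 32.8% of the class II UMIs of hepatocyte-like nuclei but 5.03% in macrophage-like and 1.09% in B-like nuclei. H2-DMa UMIs outside the antigen-presenting classes therefore do not keep the ratio to the other members that those classes show. H2-DMa is also the member that overlaps Brd2.

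**Figure D2:**
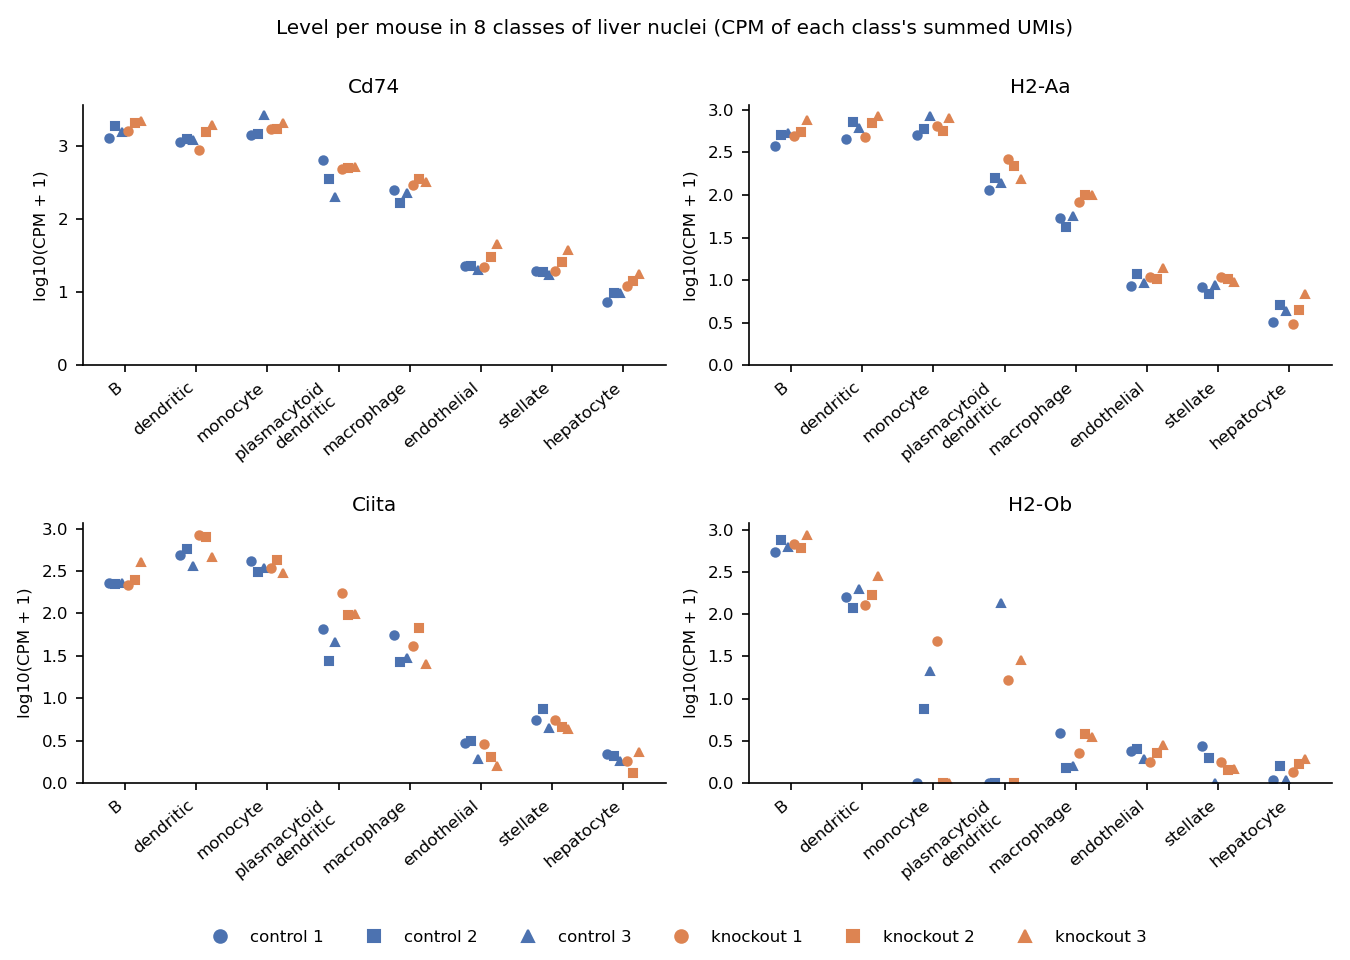
Levels of Cd74, H2-Aa, Ciita and H2-Ob in 8 classes of nuclei, as log10(CPM + 1) on the vertical axis, 1 point per mouse. H2-Ob stands near 671 CPM in B-like nuclei and near 1.78 CPM in macrophage-like nuclei, while Ciita is highest in dendritic-like nuclei (585 CPM).

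RNA released from other cells gives some UMIs to every nucleus. The lowest levels of Cd74 and H2-Aa were therefore set against hepatocyte-like nuclei, which were assumed to lack these genes. H2-DMa was not compared so. Its means per 100 hepatocyte-like nuclei were 11.2 UMIs in controls and 12.1 in knockouts. They were 5.26 and 6.08 in endothelial-like and 6.83 and 6.15 in stellate-like nuclei. Cd74 UMIs per 100 nuclei were alike in hepatocyte-like (12.1 ± 4.25), stellate-like (11.5 ± 3.64) and endothelial-like nuclei (9.89 ± 3.601), and were 132 ± 38.1 in macrophage-like and 387 ± 86.2 in B-like nuclei. H2-Aa gave 3.90 ± 1.62, 4.21 ± 0.622 and 3.70 ± 0.778 UMIs per 100 hepatocyte-, stellate- and endothelial-like nuclei, and 35.3 ± 13.9 per 100 macrophage-like nuclei. Per nucleus, Cd74 and H2-Aa in stellate- and endothelial-like nuclei were thus near the hepatocyte values. In CPM they were higher than in hepatocyte-like nuclei. Mean Cd74 was 22.2 and 26.3 against 11.0 CPM, and mean H2-Aa 8.12 and 9.81 against 3.52 CPM. Whether these 2 classes held class II RNA of their own was not tested. At least 1 Cd74 UMI was seen in 42.3 to 67.6% of macrophage-like nuclei per mouse and in 5.76 to 15.4% of hepatocyte-like nuclei, whose median depths were 4021 to 5262 and 9185 to 11747.5 UMIs. After each nucleus was thinned to 1000 UMIs, which left out none, these shares were 14.9 to 27.1% and 0.709 to 2.28%.

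**Figure D3:**
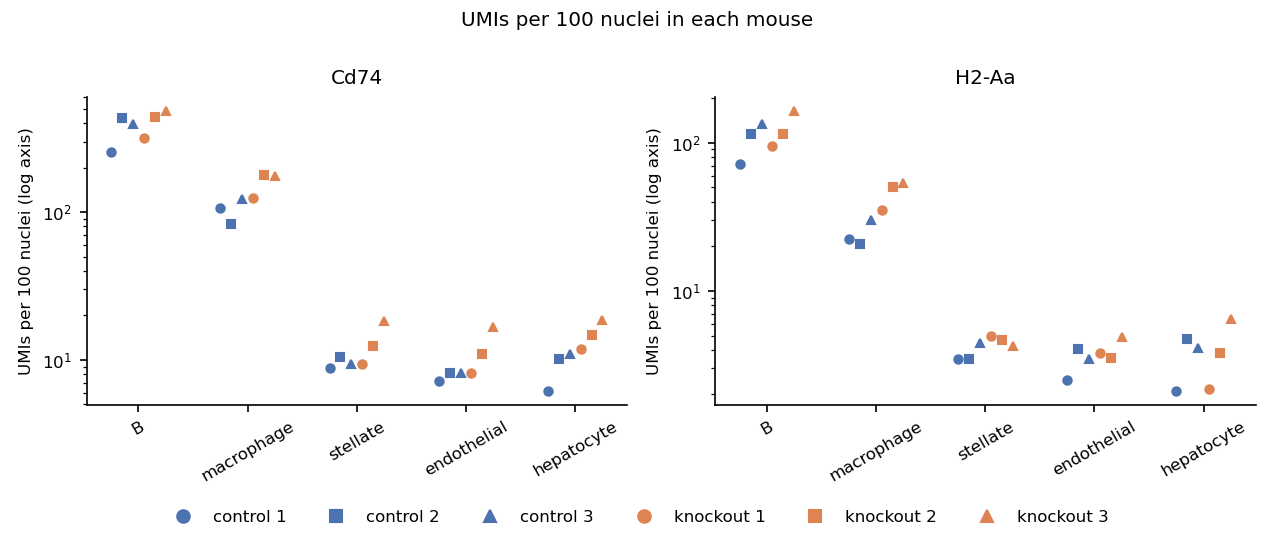
Cd74 and H2-Aa UMIs per 100 nuclei in 5 classes, on a log axis, 1 point per mouse. Stellate-, endothelial- and hepatocyte-like nuclei sit together (Cd74 means of 9.89 to 12.1), below macrophage-like (132) and B-like nuclei (387).

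The pattern of the classical chains over classes and mice was compared with that of 13027 other genes in 72 class and library sums of 12 classes, which share libraries and depth. Pearson r with the mean of the 3 chains was highest for Cyp4f18 (0.935), Pkib (0.928), March1 (0.923), Trim30b (0.919), Ly86 (0.915), Themis2 (0.914), Wdfy4 (0.912) and Btk (0.912). March1 encodes a ubiquitin ligase that removes class II from the surface, and Btk a kinase of B cell receptor signalling. Among the members, r was 0.923 for Cd74, 0.927 for H2-DMb1, 0.900 for Ciita and 0.587 for H2-DMa. For Ciita the closest genes were Cyp4f18 (0.900), Ctss (0.873), Pkib (0.868), Trim30b (0.855) and Wdfy4 (0.852). Ctss encodes the cathepsin that trims the invariant chain, and Wdfy4 was also one of the dendritic markers.

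In macrophage-like nuclei, the question was whether class II levels differed between knockout and control mice. H2-Aa was at 52.3, 41.5 and 55.9 CPM in the controls and at 81.1, 99.1 and 98.8 CPM in the knockouts. All 3 knockouts lay above all 3 controls. The log2 fold change was 0.88 (SE 0.15), with an adjusted p of 0.579 by edgeR's quasi-likelihood test, so the difference did not pass the threshold of 0.05. H2-Ab1 was at 40.8, 39.1 and 63.3 CPM against 65.7, 106 and 78.3 CPM, a log2 fold change of 0.79 (SE 0.24). H2-Eb1 was at 42.1, 32.3 and 53.6 CPM against 56.7, 86.1 and 70.7 CPM (0.72, SE 0.21 on the log2 scale). The groups did not overlap for either beta chain, though control 3 and knockout 1 were close in both.

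Cd74 was at 248, 166 and 228 CPM in macrophage-like nuclei of the controls and at 290, 352 and 325 CPM in those of the knockouts, with a log2 fold change of 0.57 (SE 0.16). Control 2 was the lowest mouse and knockout 2 the highest. Of the 7 members that passed the low-count filter, 6 had a higher fitted level in the knockouts and the groups did not overlap for 4 (H2-Aa, H2-Ab1, H2-Eb1 and Cd74). Over all 12044 genes tested, 5.39% had the 3 knockouts above the 3 controls. The members' median log2 fold change was 0.57 and that of all genes tested 0.00. H2-Oa and H2-Ob did not pass the filter, and these counts, from the contrast known when the genes were chosen, are a description.

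By edgeR, 0 of the 7 members were called at an adjusted p under 0.05, as were 0% of all genes tested (0 of 12044). At an unadjusted p under 0.05, 4 of the 7 members and 394 of the 12044 genes (3.27%) passed. DESeq2 called 1 member, H2-Aa (adjusted p 0.014), among 8 genes (0.0664%). Without the low-count filter edgeR called H2-Aa, H2-Ab1, H2-Eb1 and Cd74 (adjusted p 3.5e-05, 0.00094, 0.0077 and 0.013) among 33 of 22071 genes (0.15%). Over the main fit and its 14 alternatives the H2-Aa log2 fold change stayed between 0.76 and 1.01.

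The groups overlapped for the loading chains and the transactivator in macrophage-like nuclei. H2-DMb1 was at 48.0, 32.6 and 38.0 CPM in the controls and 33.2, 51.0 and 32.9 CPM in the knockouts (log2 fold change -0.04, SE 0.21), with overlap. H2-DMa was at 23.6, 28.4 and 23.8 CPM against 31.6, 24.6 and 39.1 CPM (0.31, SE 0.19), overlapping through knockout 2. Ciita was at 54.2, 25.8 and 28.8 CPM against 39.9, 67.1 and 24.1 CPM (0.25, SE 0.44). Its 3 highest mice, control 1, knockout 1 and knockout 2, came from both groups, and H2-Aa was at 52.3 CPM in the first of them and at 81.1 and 99.1 CPM in the others.

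**Figure D4:**
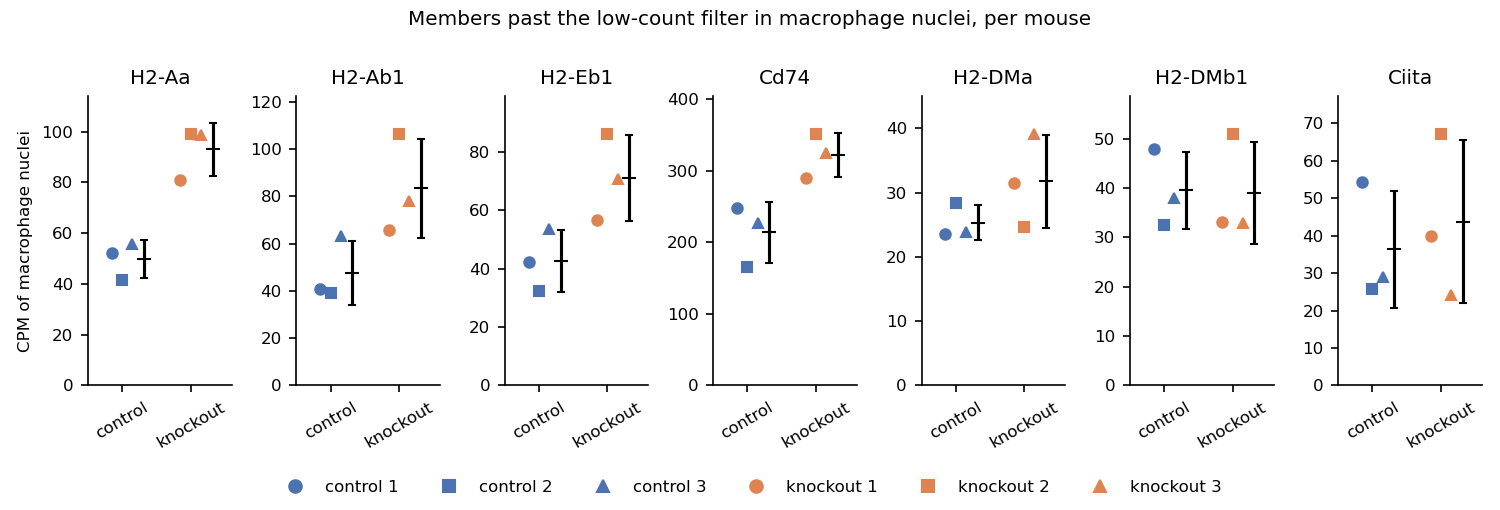
CPM of the 7 members past the low-count filter in macrophage-like nuclei, 1 point per mouse, with group mean and SD (n = 3) as bars. Knockouts lie above controls for H2-Aa, H2-Ab1, H2-Eb1 and Cd74, and the groups overlap for H2-DMa, H2-DMb1 and Ciita.

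Several other measures moved with the groups in these macrophage-like nuclei. Cd74 in hepatocyte-like nuclei was at 6.45, 8.91 and 8.91 CPM in the controls and at 11.1, 13.5 and 17.1 CPM in the knockouts, without overlap. When each mouse's hepatocyte value was subtracted, Cd74 UMIs per 100 macrophage-like nuclei were 99.6, 73.2 and 112 in the controls and 113, 163 and 158 in the knockouts. The knockout mean was 1.54 times the control mean before and 1.53 times after the subtraction, and 1.89 and 2.03 times for H2-Aa. H2-Ab1 and H2-Eb1, which did not overlap in CPM, overlapped per nucleus both before and after the subtraction.

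Hepatocyte markers (8 genes, none at 0) in macrophage-like nuclei summed to 568 to 676 CPM per control and 906 to 1177 CPM per knockout mouse. The 9 dendritic markers summed to 668 to 712 against 723 to 748 CPM, the 8 monocyte markers to 903 to 987 against 1017 to 1071 CPM, and the 7 plasmacytoid dendritic markers to 411 to 479 against 357 to 403 CPM. The 10 B markers overlapped, at 1415 to 1582 against 1126 to 1587 CPM. No marker of these lists was at 0. Beyond the hepatocyte subtraction, the part of these in the class II values was not tested. Hepatocyte markers also did not overlap in B-like nuclei (1111 to 1371 CPM in controls, 1965 to 2410 CPM in knockouts). The same held in endothelial-like (690 to 872 against 998 to 1512 CPM) and monocyte-like nuclei (688 to 975 against 1117 to 1485 CPM). In dendritic-like nuclei they summed to 702 to 751 against 774 to 1575 CPM. Their part in the class II values of these classes was not tested.

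Macrophage-like nuclei fell into an Il1b-low cluster (1621 nuclei) and clusters with higher Il1b and Cd83 (2801 nuclei), a division set after the data were seen. They are called the Il1b-low state and the Il1b and Cd83 state. Neither Marco nor Cd163, listed as markers of a Kupffer state, set the former apart. Marco was highest in a small cluster of the latter, at 404 ± 368 CPM against 73.1 ± 63.6 CPM in the Il1b-low state (SD, n = 6). Cd163 was at 1420 ± 682 CPM in the Il1b-low state and at 1591 ± 527 and 1706 ± 458 CPM in the clusters of the other, with overlap. Il1b and Cd83 levels also varied by library. In the largest cluster of the Il1b and Cd83 state (2590 nuclei), Il1b was at 298, 39.7 and 49.4 CPM in the controls. It was at 64.4, 388 and 36.5 CPM in the knockouts. Cd83 was at 173, 52.9 and 46.5 against 85.7, 240 and 80.3 CPM there. In the Il1b-low state Il1b was at 18.98 ± 10.8 CPM and Cd83 at 28.7 ± 8.29 CPM (SD, n = 6). Whether the division reflects cell states or libraries was not tested. The states were spread unevenly over mice in both groups. The Il1b-low state made up 0.799, 11.8 and 9.52% of the nuclei of the controls and 1.45, 0.736 and 15.1% of those of the knockouts, so that control 1, knockout 1 and knockout 2 rested on 30 to 64 nuclei.

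H2-Aa was higher in all knockouts within each state. In the Il1b and Cd83 state it was at 52.4, 46.6 and 49.9 CPM in the controls and at 81.0, 98.6 and 156 CPM in the knockouts (log2 fold change 1.07, SE 0.23). In the Il1b-low state it was at 49.5, 40.2 and 59.7 CPM against 81.9, 110 and 91.1 CPM (0.86, SE 0.22). H2-Ab1, H2-Eb1 and Cd74 did not overlap between groups in the Il1b and Cd83 state (4 of 7 members with H2-Aa, against 4.73% of all genes tested there). In the Il1b-low state only H2-DMa and H2-Aa did not overlap (2 of 7, against 5.43%). H2-DMa was at 19.8, 27.6 and 25.1 against 38.0, 32.4 and 38.7 CPM there (0.53, SE 0.23).

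No member was called by edgeR in either state, where 0% (Il1b and Cd83 state) and 0.0104% (Il1b-low state) of all genes were. At an unadjusted p under 0.05, 4 and 3 of the 7 members passed, against 1.87% and 3.31% of all genes tested. DESeq2 called 0 members in both. Without the low-count filter, 3 members (H2-Aa, H2-Ab1 and H2-Eb1) were called in the Il1b and Cd83 state, among 0.0773% of genes. The knockout effect on H2-Aa differed between the states by 0.39 (SE 0.29) on the log2 scale, with an adjusted p of 1.00 by edgeR, and 0% of all genes were called. Ciita in the Il1b-low state was at 79.3, 28.5 and 31.8 CPM in the controls and 58.5, 97.1 and 23.4 CPM in the knockouts, so the mice with high Ciita in macrophage-like nuclei as a whole were also high within this state.

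In B-like nuclei the members were high in every mouse and the groups overlapped for 8 of the 9. H2-Oa was at 34.5, 42.3 and 8.65 CPM in the controls and at 50.9, 64.7 and 77.02 CPM in the knockouts, from 88 UMIs in all. Control 3 was far below the others, and all knockouts lay above all controls, as did 4.88% of the 4838 genes tested. The log2 fold change was 1.26 (SE 0.42), with an adjusted p of 0.822 by edgeR. H2-Ob, its partner chain, was at 534, 754 and 614 CPM against 672, 599 and 849 CPM (0.17, SE 0.17).

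Cd74 in B-like nuclei was at 1314, 1919 and 1578 CPM in the controls and 1613, 2077 and 2220 CPM in the knockouts (log2 fold change 0.30, SE 0.15). H2-Aa was at 370, 501 and 536 against 487, 545 and 752 CPM (0.36, SE 0.18). Ciita was at 224, 223 and 229 CPM in the controls, within 3.21 CPM (SD), and at 214, 245 and 401 CPM in the knockouts (0.38, SE 0.22). Knockout 3 was the highest mouse in each of these 3 genes. Without it the log2 fold change was 0.02 for Ciita, 0.14 for H2-Aa and 0.0081 for H2-Ob; without control 1 it was 0.16 for Cd74, 0.20 for H2-Aa and 0.053 for H2-Ob, and without control 3 it was 0.80 for H2-Oa. The fitted change was above 0 for 9 of 9 members, with a median of 0.38 against 0.00 over all genes, and 0 members were called by edgeR or DESeq2, where edgeR called 3 genes (0.062%). At an unadjusted p under 0.05, 4 members passed by edgeR and 1 by DESeq2, against 4.42% and 1.63% of all genes tested.

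B-like nuclei were a larger share of the nuclei in each knockout mouse: 2.40, 1.56 and 2.64% in the controls and 3.17, 3.41 and 5.72% in the knockouts. The exact two-sided permutation test gave p = 0.1, the smallest that 3 against 3 mice allow, and 1.00 after adjustment over 17 classes. The mean difference of 1.90 percentage points was 1.09 without knockout 3. Macrophage-like (17.2% ± 0.812 and 17.3% ± 1.18, SD, n = 3) and dendritic-like shares (0.586% ± 0.215 and 0.559% ± 0.228) overlapped. The monocyte-like share was 0.300, 2.29 and 0.368% in the controls and 0.385, 0.564 and 0.556% in the knockouts. Shares of nuclei add to 100%, so a change in one class moves the others.

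When all nuclei of a mouse were summed, more B-like nuclei and more class II RNA per nucleus cannot be told apart. H2-Ob was then at 6.62, 6.33 and 7.94 CPM in the controls and 9.61, 9.83 and 23.2 CPM in the knockouts (log2 fold change 0.97, SE 0.37), without overlap. H2-Oa also did not overlap, making 2 of 9 members against 5.14% of all genes. With B-like nuclei left out, an alternative chosen after seeing the data, both overlapped: H2-Ob was at 1.75, 1.45 and 2.03 CPM against 1.51, 2.24 and 3.56 CPM. Cd74 went from 75.4 ± 6.31 and 119 ± 38.8 CPM (controls and knockouts, SD, n = 3) to 62.7 ± 7.18 and 88.0 ± 23.7 CPM. Over all nuclei, edgeR called 0 of the 9 members (0.0109% of all genes) and DESeq2 called 0. At an unadjusted p under 0.05, 3 members passed by edgeR and 4 by DESeq2, against 3.17% and 3.55% of all genes tested.

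In endothelial-like nuclei, 5 members passed the filter, 0 were called by edgeR (0% of 12920 genes) or DESeq2, and none was without overlap between groups, where 7.21% of all genes had the knockouts above the controls. Cd74 was at 21.6, 21.6 and 19.5 CPM in the controls and 21.5, 29.1 and 44.8 CPM in the knockouts (log2 fold change 0.55, SE 0.24), the only member with an unadjusted p under 0.05 in either tool there. Of all genes tested there, 4.17% passed that level by edgeR and 2.59% by DESeq2. In stellate-like nuclei, the cells of the Lrat promoter, 6 members passed the filter and 0 were called by edgeR (0.0608% of all genes) or DESeq2. Of the stellate members, 2 passed an unadjusted p under 0.05 by edgeR and 1 by DESeq2, against 4.46% and 2.07% of all genes tested.

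Cd74 in stellate-like nuclei was at 18.7, 17.7 and 16.4 CPM against 18.8, 24.9 and 36.8 CPM (0.54, SE 0.24), and H2-Eb1 at 1.38, 4.42 and 3.02 against 7.69, 7.11 and 6.60 CPM (1.29, SE 0.42, 70 UMIs in all). H2-Aa also had no overlap there, making 3 of 6 members against 7.75% of all genes. In both classes Cd74 stood at the hepatocyte level per nucleus, which was itself higher in the knockouts. Hepatocyte markers in stellate-like nuclei summed to 529 to 662 CPM in the control and 801 to 1417 CPM in the knockout mice. Their part in the class II values was not tested.

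Differences of the knockout effect between classes were tested with the mouse as a block. The effect on H2-Aa was smaller in B-like than in macrophage-like nuclei by 0.52 on the log2 scale (fitted difference -0.52, SE 0.22), with an adjusted p of 0.912 by edgeR. The difference between endothelial- and macrophage-like nuclei was -0.67 (SE 0.26), with an adjusted p of 1.00. No member passed in either comparison, where 0.0166% and 0% of all genes did. H2-Aa alone among the members had an unadjusted p under 0.05 in each, against 5.18% and 3.78% of all genes tested. These comparisons share their macrophage-like values.

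**Figure D5:**
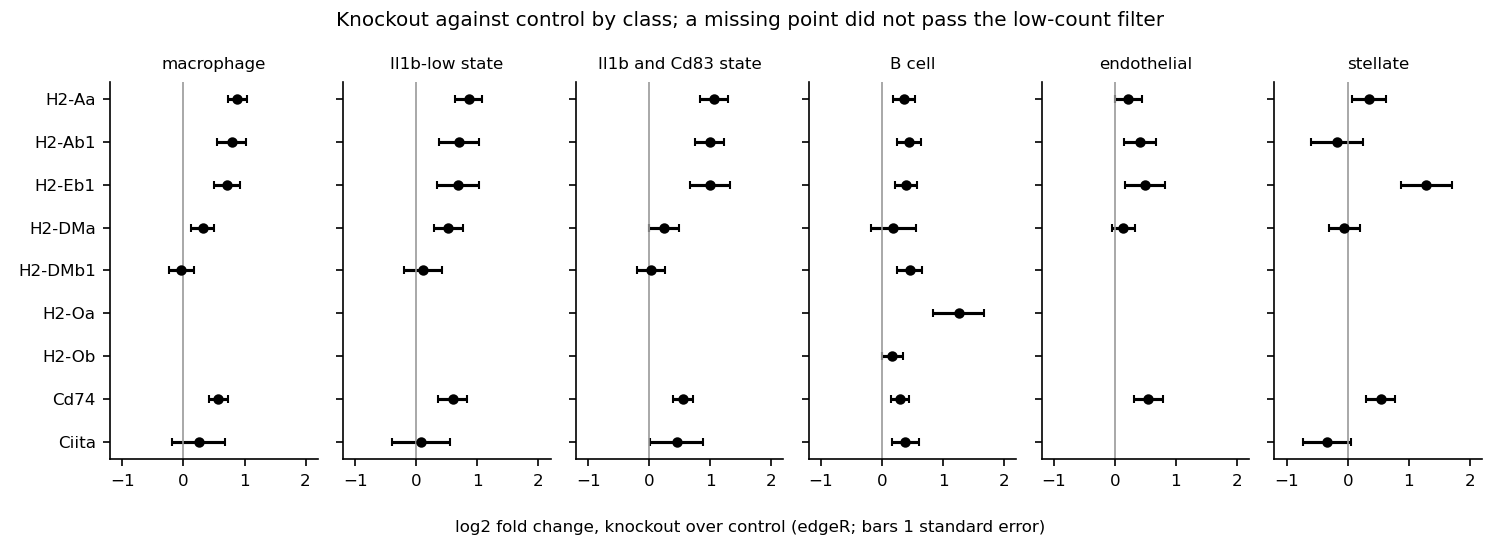
Log2 fold change of knockout over control for each member by class (horizontal axis, edgeR), with bars of 1 standard error. H2-Aa is at 0.88 in macrophage-like nuclei and 0.36 in B-like nuclei, and no member passed the adjusted threshold.

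Other genes of the pathway were read from a list of 34: further class II rows, promoter complex, interferon gamma route, lysosomal processing, class II turnover and costimulation. By edgeR, 0 of the 33 tested in macrophage-like, 0 of 26 in B-like, 0 of 28 in endothelial-like and 0 of 24 in stellate-like nuclei were called. Unadjusted p was under 0.05 for 2, 2, 3 and 1 of them, against 3.27, 4.42, 4.17 and 4.46% of all genes tested. Their median log2 fold changes were 0.04, 0.01, 0.06 and -0.03. In macrophage-like nuclei none of the 7 promoter complex genes and none of the 7 interferon gamma route genes passed even unadjusted.

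The pathway genes with the smallest unadjusted p did not pass after adjustment. In macrophage-like nuclei these were Cd40, a costimulatory receptor, at 33.5, 27.6 and 29.1 CPM in the control mice and 37.7, 42.2 and 40.6 CPM in knockouts (log2 fold change 0.40, SE 0.14), and Cd274, which encodes the inhibitory ligand PD-L1, at 99.7, 48.8 and 70.9 against 120, 127 and 104 CPM (0.66, SE 0.23). Neither overlapped between groups, where 5.39% of all genes tested had the knockouts above the controls. Genes named for their small p tend not to overlap, so lack of overlap adds nothing for the genes of this list. In endothelial-like nuclei Cd274 was at 9.91, 5.68 and 7.60 against 15.1, 15.2 and 16.5 CPM (0.97, SE 0.21), and Ctsd, a lysosomal protease, at 46.9, 55.1 and 49.9 against 65.6, 66.6 and 72.5 CPM (0.38, SE 0.12).

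In B-like nuclei Cd83, whose product counteracts March1, was at 129, 211 and 108 CPM in the control mice and 47.2, 119 and 60.8 CPM in knockouts (log2 fold change -0.97, SE 0.31), overlapping through knockout 2. Ctsb, a lysosomal cysteine protease, was at 90.5, 133 and 112 against 69.0, 64.7 and 56.8 CPM (-0.82, SE 0.27), without overlap. Of all genes tested in B-like nuclei, 4.32% had the knockouts below the controls without overlap. In stellate-like nuclei Nfyb, a subunit of the Y box factor, was at 18.7, 19.1 and 17.3 against 12.7, 15.6 and 14.1 CPM (-0.43, SE 0.20), without overlap. Of all genes tested in stellate-like nuclei, 3.14% had the knockouts below the controls without overlap. Ifi30, a lysosomal thiol reductase, was at 3.11, 9.33 and 6.04 against 9.23, 8.003 and 12.3 CPM there (0.67, SE 0.38), with overlap.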

How the data were processed

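Deposited counts were UMI counts per gene and barcode made by the authors with Cell Ranger, version 7.0.1 on mm10 per the submitters' processing notes and 7.1.0 per the file headers, from a 10x 3′ version 3.1 kit per the labels. The members and lists were chosen with earlier results of these data known. Barcodes with at least 500 genes, 1000 UMIs and at most 5% mitochondrial UMIs were kept. Scrublet calls were removed. Nuclei were clustered with scanpy 1.11.5 (3000 variable genes without the members, 30 components, 15 neighbours, Leiden resolution 1), giving 34 clusters, of which 4 were left unnamed. UMIs were summed per mouse and class and tested with edgeR 4.0.16 (TMM, filterByExpr, quasi-likelihood, Benjamini-Hochberg over all genes of the class), with DESeq2 1.42.0 as an alternative. Classes with under 20 nuclei in any library were not tested. CPM used unscaled class totals. The named genes were the 9 members, listed pathway genes past the threshold or the 2 with the smallest p per class, and the 8 and 5 most alike. The test was checked on simulated data: in macrophage-like sums (11843 genes), 50 of 50 genes changed 4-fold and 19 of 50 changed 2-fold upward were recovered, with 6 false calls, and in B-like sums (4583 genes) 50 of 50 and 20 of 49, with 1 false call. The simulated counts had the same preset dispersion for every gene, not the dispersions of these data. Genes were changed 2-fold and 4-fold, up and down, in the same run. Recovery in the real data can therefore differ and was not measured. The total of 23153182 to 27199466 UMIs per library sets the precision, and 0 UMIs were read as under 3 UMIs, for counting error only. Alternatives were the scaling, DESeq2, the filter, left-out libraries, the clustering genes, thinning and doublets.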

Additional observations from a re-analysis of the deposited data

How the results depend on the processing

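No member was called in any class by edgeR under another scaling, another clustering, thinning, kept doublet calls or leaving out a library. Members called went from 0 to 1 with DESeq2 and 4 without the filter in macrophage-like nuclei, and from 0 to 3 without the filter in the Il1b and Cd83 state. Of 405 member values under settings that are not single left-out libraries, 385 kept direction and side of the threshold, 8 were newly called and 12 turned direction. The cause was not tested. Counts of all genes called were 2 (all nuclei), 0 (macrophage-like), 1 (Il1b-low state), 0 (Il1b and Cd83 state), 3 (B-like), 0 (endothelial-like) and 7 (stellate-like). With DESeq2 they were 15, 8, 2, 0, 3, 21 and 13, and without the filter 33 in macrophage-like, 18 in Il1b-low state, 16 in Il1b and Cd83 state, 18 in B-like, 71 in endothelial-like and 72 in stellate-like nuclei. Without both control 1 and knockout 2 they were 0 (all nuclei), 2 (macrophage-like), 3 (Il1b-low state), 3 (Il1b and Cd83 state), 17 (B-like) and 7 (endothelial-like). Thinning gave 4, 1, 3 and 2 for all, macrophage-like, Il1b-low state and endothelial-like nuclei. In the Il1b-low state DESeq2 size factors, total UMIs alone and kept doublets gave 3 each, and members among the clustering genes gave 0 there and 1 in endothelial-like nuclei. B minus macrophage called 2 genes, and 1 with total UMIs alone.

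Leaving out 1 library at a time gave 0 to 2 genes called over all nuclei, 0 to 4 in the Il1b-low state, 0 to 2 in the Il1b and Cd83 state, 2 to 21 in B-like and 0 to 6 in endothelial-like nuclei, 0 to 77 for B minus macrophage and 0 to 1 for endothelial minus macrophage. The highest values of 21, 6, 2 (Il1b and Cd83 state) and 77 came without control 1. The log2 fold change then ranged from -0.28 to 0.12 (H2-DMb1, macrophage-like), -0.15 to 0.28 (H2-DMb1, Il1b and Cd83 state), -0.19 to 0.71 (H2-DMb1, Il1b-low state), -0.21 to 0.65 (Ciita, macrophage-like), -0.21 to 1.05 (Ciita, Il1b-low state), -0.51 to 0.13 (H2-Ab1, stellate-like), -0.18 to 0.14 (H2-DMa, stellate-like) and -0.031 to 0.23 (H2-DMa, endothelial-like). The knockout minus control share of nuclei ranged from -0.152 to 0.0775 percentage points (dendritic-like), 1.09 to 2.36 (B-like), -0.827 to 0.168 (monocyte-like, above 0 without control 2) and -0.540 to 0.624 (macrophage-like). With doublets kept the macrophage-like difference was -0.0176 percentage points.

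Directions also turned without control 1 and knockout 2 for H2-DMb1 (-0.19) and Ciita (-0.064) in the Il1b-low state, H2-DMa in B-like (-0.0059) and in stellate-like nuclei (0.071). With doublets kept they turned for H2-DMa (-0.26) and H2-DMb1 (-0.037) in the Il1b and Cd83 state and Ciita in stellate-like nuclei (0.042). With members among the clustering genes H2-DMb1 in the Il1b and Cd83 state was at -0.0015. Thinning turned H2-DMb1 there (-0.21), H2-Ob in B-like (-0.070) and H2-DMa in endothelial-like nuclei (-0.011). With B-like nuclei left out, the H2-DMb1 difference over all nuclei was -0.284 CPM. Members with an unadjusted p under 0.05 by edgeR also moved without control 1 and knockout 2. They went from 4 to 2 (macrophage-like), 4 to 1 (B-like), 3 to 1 (all nuclei), 2 to 0 (stellate-like) and 1 to 0 (endothelial-like). In the Il1b-low state they went from 3 to 4, and in the Il1b and Cd83 state they stayed at 4. Of all genes tested, 2.61 to 5.01% passed in these fits.

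The dendritic-like class was not tested because its smallest library held 16 nuclei. No paired analysis was possible because the labels number each mouse singly and, while calling controls littermates, do not say of which knockout; the numbers 1 to 3 used here only follow the order of deposit. With 3 mice a group, changes of 2-fold can be missed. The simulation recovered 19 of 50 doublings in macrophage-like sums, but at a preset dispersion, so it does not give the power of these data. Values of the Il1b-low state in control 1, knockout 1 and knockout 2 rest on 30 to 64 nuclei.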

Other observations

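Class II levels in the rarer antigen-presenting nuclei were not tested, since a library held as few as 16 dendritic-like, 13 monocyte-like or 7 plasmacytoid dendritic-like nuclei. In dendritic-like nuclei H2-Ab1 was at 286, 517 and 551 CPM in the controls and at 669.5, 677 and 677 CPM in the knockouts. These CPM values did not overlap, but the share of all genes without overlap was not computed for this class. Per nucleus, with each mouse's hepatocyte value subtracted, H2-Ab1 overlapped between the groups. H2-Aa was at 455, 724 and 604 against 481, 693 and 840.2 CPM in dendritic-like nuclei, with overlap. In monocyte-like nuclei, H2-Aa was at 508, 598 and 853 against 652, 569 and 806 CPM and Cd74 at 1425, 1461 and 2723 against 1738, 1718 and 2077 CPM, both with overlap. Control 3 was the highest monocyte-like value for both genes, from 13 nuclei. In plasmacytoid dendritic-like nuclei Ciita was at 65.2, 26.3 and 45.2 against 171, 95.7 and 97.9 CPM, from 30 UMIs in all. Control 3 held 7 of these nuclei, and hepatocyte markers summed to 11121 CPM in them. The same markers summed to 587 and 776 CPM in the other controls and 902 to 1371 CPM in the knockouts. In UMI counts of this class, H2-Aa, H2-Ab1, H2-Eb1 and H2-DMa overlapped between groups and H2-DMb1 did not.

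Within macrophage-like nuclei, the small cluster led by Marco, Cd83 and Nlrp3 (211 nuclei) was at 116 ± 34.3 CPM of H2-Aa (SD, n = 6) against 75.8 ± 48.0 CPM in the larger Il1b cluster and 72.1 ± 26.7 CPM in the Il1b-low cluster. It held H2-Aa at 71.1, 82.5 and 106.5 CPM in the controls and 151, 134 and 149 CPM in the knockouts. Cd74 there was at 249, 323 and 391 against 432, 482 and 568 CPM. These are descriptions of clusters, without a test.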
